A study of Homo sapiens with 6 samples.

Results

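SMOC1 and the bone morphogenetic protein (BMP) pathway were examined in RNA sequencing of SKBR3 cells, an established HER2-positive human breast adenocarcinoma line. Of 54644 gene rows, 10 were taken by name. They were SMOC1, the ligand genes BMP2, BMP4 and BMP7, the receptor genes BMPR1A and BMPR2, the target genes ID1, ID2 and ID3, and the inhibitory SMAD gene SMAD6. The set was put together because SMOC1 was higher in the CTTN-overexpressing cells, so the SMOC1 values below are a description without a test. The other 9 genes were chosen for their place in the pathway, with earlier results of these data known.

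Both groups were SKBR3 cells stably infected with lentivirus and selected with puromycin. The control group carried the empty pLVX vector and the CTTN group carried pLVX-CTTN, which adds the cDNA of cortactin, an actin-binding protein. Each group had 3 biological replicates, sequenced as poly(A)-selected stranded libraries. The study asked how CTTN overexpression changes HER2-positive cells. How many infections or clones each stable line came from was not given in the sources used here. The extraction notes also use the word tumors, whereas the design text names cells.

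BMPs are secreted dimers that bring together type I receptors such as BMPR1A and type II receptors such as BMPR2. The active receptors phosphorylate SMAD1, SMAD5 and SMAD9, which enter the nucleus with SMAD4 and switch on targets such as the ID genes, SMAD6 and SMAD7. ID proteins bind basic helix-loop-helix factors and keep them off DNA, and SMAD6 and SMAD7 damp the pathway from within. Secreted antagonists, among them noggin (NOG), chordin (CHRD), gremlins and follistatin, act outside the cell. SMOC1 is a secreted calcium-binding matrix protein of the SPARC family that is known to antagonise BMP signalling.

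The libraries held 35478965 to 36531366 whole reads with CTTN and 34887069 to 41279833 in controls. The normalised read count used below is the number of whole reads divided by a size factor for each library, and FPKM is a level of fragments corrected for transcript length and sequencing depth. The CTTN gene itself, which checks the labels, had normalised read counts of 29088, 37144 and 18999 in CTTN libraries 1 to 3 and of 10912, 11228 and 11265 in control libraries 1 to 3. It was higher in all 3 CTTN libraries by 1.30 ± 0.22 on the log2 scale (SE), or 2.46-fold (limma adjusted p = 0.0280). With fewer libraries it stayed higher but missed the threshold without CTTN library 1 (adjusted p = 0.152) and without any one control library (adjusted p = 0.136 to 0.150). The control libraries were alike, with pairwise correlations of 0.995 to 0.996 across genes, whereas those of the CTTN libraries were 0.974 to 0.991. CTTN library 3 stood farthest from the controls. Of the markers of other cells, the leukocyte markers PTPRC and CD3E, the fibroblast or mesenchymal markers COL1A2, COL3A1, PDGFRB and VIM and the endothelial marker PECAM1 stayed below 16 normalised reads in every library. The row of CD68 is shared with other genes. COL1A1 was at 462 to 560 in CTTN libraries and 555 to 603 in controls and did not pass the test. The endothelial marker CDH5 was called lower, at 162 to 262 in CTTN libraries and 560 to 614 in controls (limma adjusted p = 0.00837). Of the 7 epithelial markers 0 passed with limma, edgeR or DESeq2 (limma called 4.23% of all tested genes), 1 reached an unadjusted p under 0.05 (30.5% of all), and CDH1 was at only 6 to 17 normalised reads. With the transcript length trend described below removed, ERBB2 was called higher and KRT18 lower, and without CTTN library 2 GRB7 and KRT19 were called higher.

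SMOC1 (chromosome 14, 69854131 to 70032366 in the GRCh38 coordinates of the files) had normalised read counts of 868, 949 and 964 in CTTN libraries 1, 2 and 3. In control libraries 1, 2 and 3 the normalised read counts were 366, 341 and 349. The lowest CTTN library was thus well above the highest control library, and neither group spread widely. The mean was 927 ± 51.8 (SD, n = 3) with CTTN and 352 ± 12.8 (SD, n = 3) in controls, a difference of 1.39 on the log2(count + 1) scale, or 2.63-fold. In bulk RNA, more cells expressing a gene and more RNA per cell cannot be told apart.

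The FPKM values, which also correct for transcript length, gave the same picture for SMOC1. They were 7.92, 7.75 and 7.06 in the CTTN libraries and 2.99, 3.05 and 2.92 in the controls. By mean control FPKM, SMOC1 was the eighth of the 10 genes, after ID3 (125), ID2 (18.1), BMPR1A (6.32), BMPR2 (5.65), SMAD6 (5.05), BMP4 (3.80) and ID1 (3.49), and before BMP7 (0.654) and BMP2 (0.0106). The BMP4 and ID1 control libraries overlapped on this scale, and the BMPR1A, BMPR2 and SMAD6 libraries came close without overlapping. In CTTN libraries SMOC1 was the third at a mean of 7.58 FPKM, after ID3 (201) and ID2 (22.2). Its CTTN libraries overlapped those of ID1, which ran from 3.90 to 8.30 FPKM.

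**Figure D1:**
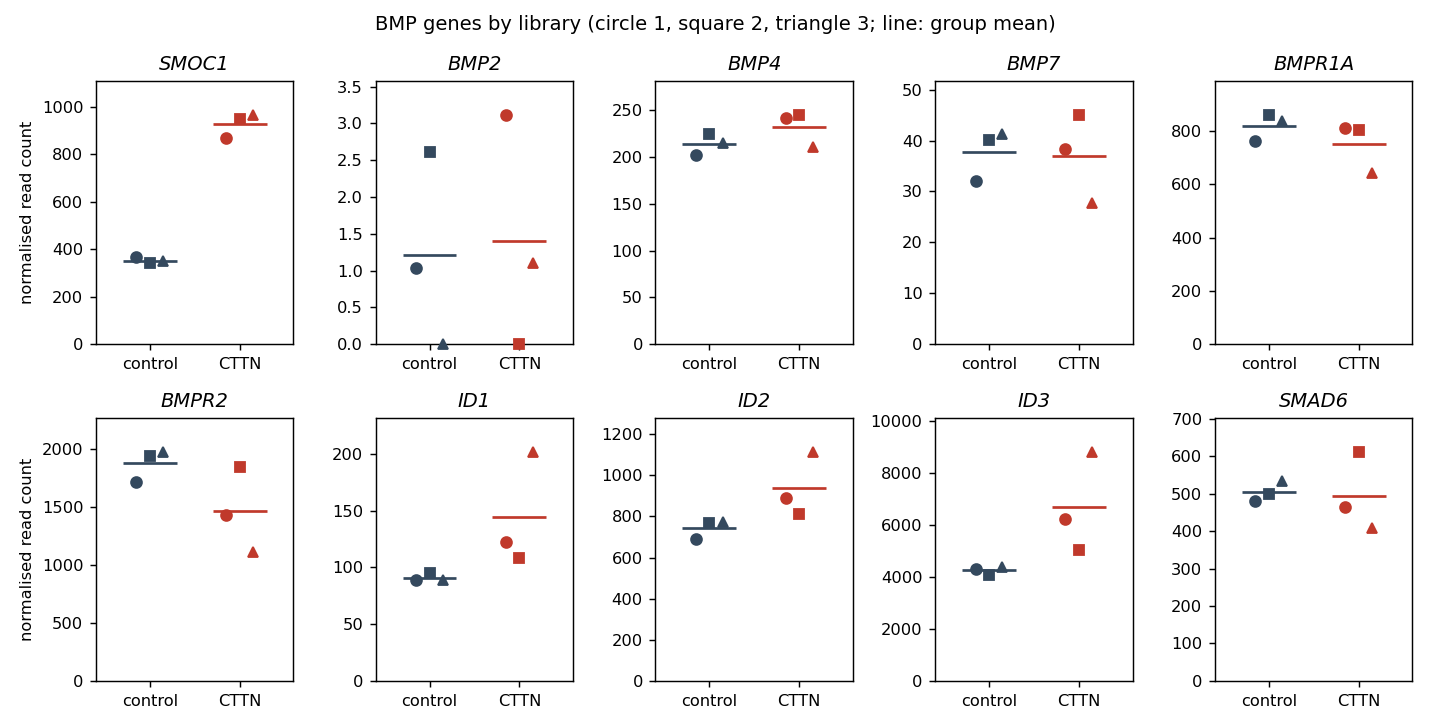
Normalised read counts of the 10 BMP genes (vertical axes, each starting at 0) in control and CTTN libraries; points are libraries and lines are group means. SMOC1 has no overlap between 341 to 366 and 868 to 964, the 3 ID genes are also higher in every CTTN library, and BMP2 is at 3.11 normalised reads or fewer throughout.

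The tables listed 6 SMOC1 transcripts from 4 start sites. Transcripts matched to ENST00000361956, listed as 2 forms of 2040 and 3679 bases, carried 41.9, 48.9 and 66.9% of SMOC1 FPKM in CTTN libraries 1 to 3 and 58.9, 54.6 and 44.7% in control libraries 1 to 3. ENST00000381280, of 3666 bases, carried 50.2, 48.4 and 33.1% in the CTTN libraries and 41.1, 40.1 and 50.5% in the controls. The shares of the groups overlapped for both. The level of each was higher with CTTN: ENST00000361956 was at 3.32, 3.79 and 4.72 FPKM against 1.76, 1.66 and 1.31, and ENST00000381280 at 3.98, 3.75 and 2.34 against 1.23, 1.22 and 1.48. These forms share a start site, and the remaining transcripts carried less than 8% in every library.

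**Figure D2:**
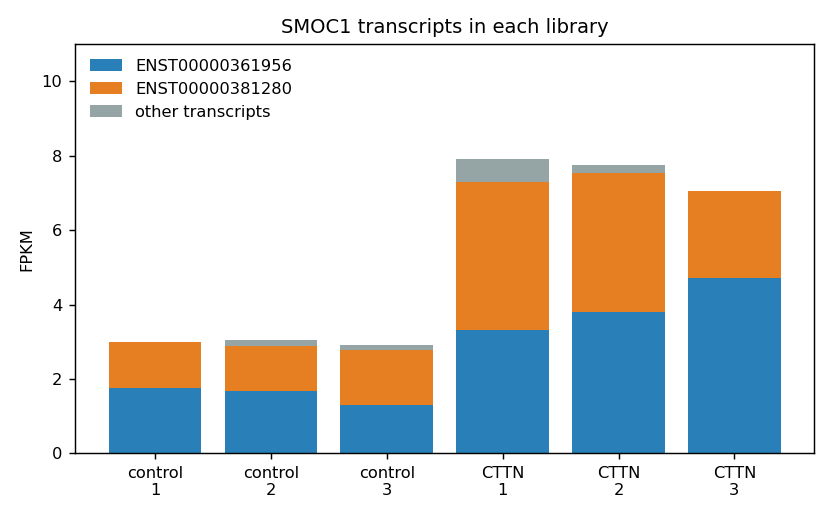
SMOC1 FPKM (vertical axis) in each library, split by the reference transcript to which the assembled transcripts were matched. Bars of the CTTN libraries reach 7.06 to 7.92 FPKM and those of the controls 2.92 to 3.05, with both main transcripts higher in every CTTN library.

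The promoters of SMOC1 and of the ID genes are shown because these are the genes of the set whose CTTN and control libraries did not overlap. Each is the 250 bases before the RefSeq start on the gene's own strand in GRCh38.p14, and 8 of the 10 genes had a window in that table, 10 windows in all. The SMOC1 window is chr14:69879166-69879415 (plus strand), the ID1 window chr20:31605039-31605288 (plus), the ID2 window chr2:8681806-8682055 (plus) and the ID3 window chr1:23559502-23559751 (minus). Capitals mark a match to CAGAC, read on either strand.
SMOC1: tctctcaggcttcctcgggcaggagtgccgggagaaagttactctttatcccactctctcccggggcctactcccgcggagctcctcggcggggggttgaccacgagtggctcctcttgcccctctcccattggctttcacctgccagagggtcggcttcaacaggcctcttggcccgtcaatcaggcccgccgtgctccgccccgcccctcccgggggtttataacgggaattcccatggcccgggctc
ID1: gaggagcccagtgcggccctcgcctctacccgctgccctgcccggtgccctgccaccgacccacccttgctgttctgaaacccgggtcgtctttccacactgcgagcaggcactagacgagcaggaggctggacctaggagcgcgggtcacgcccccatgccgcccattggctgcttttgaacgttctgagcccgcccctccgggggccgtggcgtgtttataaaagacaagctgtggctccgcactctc
ID2: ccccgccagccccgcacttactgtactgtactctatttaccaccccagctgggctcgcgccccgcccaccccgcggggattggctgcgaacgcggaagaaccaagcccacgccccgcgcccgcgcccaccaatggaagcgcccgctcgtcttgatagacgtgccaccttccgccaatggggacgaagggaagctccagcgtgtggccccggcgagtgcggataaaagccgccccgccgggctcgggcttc
ID3: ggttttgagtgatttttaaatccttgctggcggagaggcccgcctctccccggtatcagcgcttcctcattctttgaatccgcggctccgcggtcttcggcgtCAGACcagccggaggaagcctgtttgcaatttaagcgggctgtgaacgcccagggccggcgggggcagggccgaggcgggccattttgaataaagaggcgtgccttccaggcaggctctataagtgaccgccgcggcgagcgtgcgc

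GGCGCC, a GC-rich word known from SMAD1 and SMAD5 binding in BMP-responsive elements, and CAGAC, which holds the SMAD4-type box, were searched on both strands. A composite BMP-responsive element, made of GGCGCC and, after a gap of fixed length, GTCT, was searched too. A match to it holds a match to GGCGCC and need not hold one to CAGAC. Among all 35116 promoter windows, 16.4% held GGCGCC, 38% held CAGAC and 0.0769% held the composite. The SMOC1, ID1 and ID2 windows held none of them. CAGAC was found in the ID3 window (147 to 143 bases before the start), in 2 of the 3 BMP4 windows and in 2 places of the BMPR2 window. GGCGCC was found in the BMPR2 window (147 to 142 bases before the start) and in 1 of the 3 BMP4 windows (232 to 227 bases before the start), and no member's window held the composite. The windows of SMOC1, ID1, ID2 and ID3 had GC contents of 65.6, 66, 69.2 and 62%.

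The ligand genes showed no difference that passed the test. BMP2 was barely detected, with 3, 0 and 1 whole reads in CTTN libraries and 1, 3 and 0 in controls, and it did not reach the mean of 10 normalised reads needed for testing. BMP4 (chromosome 14, 53949736 to 53958761) had normalised read counts of 242, 244 and 211 with CTTN and 202, 224 and 215 in controls. The groups overlapped, and the difference was 0.12 on the log2 scale (95% interval -0.15 to 0.38, limma adjusted p = 0.467). BMP7 (chromosome 20, 57168748 to 57266629) was lower still, at 38.4, 44.9 and 27.7 against 32.0, 40.1 and 41.2 (log2 difference -0.05, 95% interval -0.61 to 0.51, limma adjusted p = 0.897). The signs of both small differences turned under some settings, BMP4 when the length trend described below was removed and BMP7 when CTTN library 3 or control library 3 was left out.

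The receptor genes also stayed short of the threshold. The type I receptor gene BMPR1A (chromosome 10, 86756601 to 86932838) had normalised read counts of 814, 804 and 642 with CTTN and 765, 860 and 838 in controls (log2 difference -0.13, 95% interval -0.41 to 0.15, limma adjusted p = 0.446). Only CTTN library 3 lay below the control range, and without it the difference was -0.019 (adjusted p = 0.907). On log2(FPKM + 1) and log2(FPKM + 0.1) the BMPR1A difference was larger, at -0.43 and -0.51 (adjusted p = 0.264 and 0.260). The type II receptor gene BMPR2 (chromosome 2, 202376936 to 202567751) was at 1432, 1845 and 1116 with CTTN and at 1722, 1942 and 1976 in controls. CTTN library 2 lay within the control range while the other two lay below it. The difference was -0.39 on the log2 scale (95% interval -0.81 to 0.03, limma adjusted p = 0.182), and it turned to 0.14 when the length trend was removed.

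ID1, ID2 and ID3 were higher in every CTTN library than in any control library, but by unequal amounts. ID4, outside the set and too low to test, was named after its values were seen. It had 4, 2 and 1 whole reads with CTTN and 4, 10 and 5 in controls. ID3 (chromosome 1, 23557918 to 23559794), the most abundant gene of the set per length, had normalised read counts of 6248, 5033 and 8815 with CTTN and 4313, 4074 and 4381 in controls. Library 3 was the highest by far and library 2 the lowest of the CTTN group. The difference was 0.62 ± 0.19 on the log2 scale (SE), or 1.53-fold, with an unadjusted p of 0.0137 and a limma adjusted p of 0.102. ID1 (chromosome 20, 31605283 to 31606515) had 122, 108 and 202 normalised reads with CTTN and 88.7, 95.1 and 89.1 in controls. The same library stood highest. The log2 difference was 0.61 ± 0.23 (SE), with an unadjusted p of 0.0351 and a limma adjusted p of 0.144. ID2 (chromosome 2, 8666636 to 8684453) had 892, 812 and 1113 normalised reads with CTTN against 692, 766 and 775 in controls. It showed the smallest difference of the 3 genes, 0.32 ± 0.13 on the log2 scale (SE), with an unadjusted p of 0.0429 and a limma adjusted p of 0.155. SMAD6 (chromosome 15, 66702228 to 66782848), which is both a target and an inhibitor of the pathway, was at 465, 612 and 408 with CTTN and at 482, 500 and 534 in controls. The CTTN libraries spread to both sides of the controls, the log2 difference was -0.05 (95% interval -0.41 to 0.32, limma adjusted p = 0.834), and its sign changed without CTTN library 3, after removal of the length trend and on the FPKM scales.

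Of the 8 genes of the set other than SMOC1 that could be tested, 0 passed limma at an adjusted p under 0.05, where 4.23% of all 14331 tested genes passed, 2.27% higher and 1.96% lower with CTTN. At an unadjusted p under 0.05, 3 of the 8 were higher and 0 lower, whereas 30.5% of all tested genes reached this level, 15.4% higher and 15.1% lower. The same 3, ID1, ID2 and ID3, had groups that did not overlap, which 19.8% of all tested genes did in that direction. The median log2 difference of the 8 genes was 0.03, and that of all tested genes was 0.01. edgeR, which called 4.46% of the genes it tested, called 0 of the 8 as well. DESeq2 called 1, ID3 (adjusted p = 0.0213), where it called 14.8% of all genes it tested.

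Across all tested genes the order of the CTTN libraries went with transcript length, but not every gene of the set followed it. ID1, ID2 and ID3 had leading transcripts of 994, 1362 and 1251 bases and the order library 3, then 1, then 2. This order was found in 37.1% of all tested genes, in 58.0% of those with a leading transcript under 1000 bases, in 67.0% of those from 1000 to under 2000 bases and in 3.74% of those of 4000 bases and over. BMPR2, with a leading transcript of 11461 bases, had the reverse order, which 82.2% of the genes of 4000 bases and over shared. BMP4 and BMP7, with leading transcripts of 1708 and 1746 bases, also had the reverse order, which was found in 10.03% of the genes from 1000 to under 2000 bases. SMAD1, a further pathway gene described below, had it too at 1966 bases. In CTTN library 3 the median log2 difference from the control mean was 0.60 for genes under 1000 bases and -0.56 for those of 4000 bases and over. In CTTN library 1 these medians were 0.24 and -0.27, and in CTTN library 2 they were 0.02 and -0.01.

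**Figure D3:**
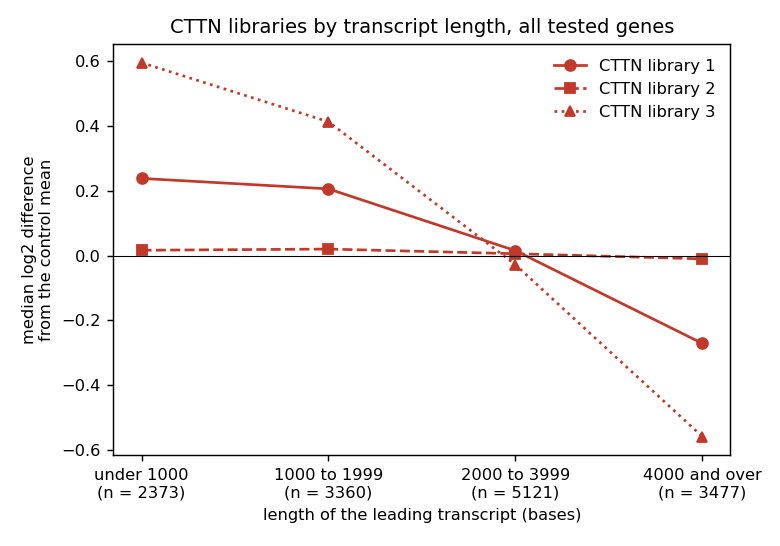
Median log2 difference of all tested genes from the control mean (vertical axis) by length of the leading transcript in bases (horizontal axis) for each CTTN library, with the number of genes under each bin. CTTN library 3 falls from 0.60 to -0.56 and CTTN library 1 from 0.24 to -0.27, whereas CTTN library 2 stays near 0.

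Each CTTN library was therefore set beside the genes of like length. SMOC1, with a leading transcript of 3666 bases, was 1.30, 1.43 and 1.45 above the control mean on the log2 scale in CTTN libraries 1, 2 and 3. The medians of its bin of like length, 2000 to under 4000 bases, were 0.02, 0.01 and -0.03. SMOC1 lay near the upper end of this bin, and the bin of 4000 bases and over had medians of -0.27, -0.01 and -0.56. ID1, at 994 bases, likewise lay at the upper end of the bin under 1000 bases. ID3 was 0.55, 0.24 and 1.05 above the control mean, beside medians of 0.21, 0.02 and 0.41. ID3 exceeded them by 0.35, 0.22 and 0.64, ID1 by 0.19, 0.24 and 0.54, and ID2 by 0.06, 0.11 and 0.17. With the length trend of each library removed, a fit that called 15.6% of all tested genes, ID3 had a log2 difference of 0.39 (limma adjusted p = 0.0299), ID1 of 0.35 (adjusted p = 0.133) and ID2 of 0.11 (adjusted p = 0.339). Without CTTN library 3, a fit that called 8.18% of all tested genes, ID3 had a log2 difference of 0.40 (limma adjusted p = 0.0442), ID1 of 0.34 (adjusted p = 0.178), ID2 of 0.19 (adjusted p = 0.218) and BMPR2 of -0.21 (adjusted p = 0.281). Without CTTN library 2, which had no length trend, BMPR2 was called lower and ID1, ID2 and ID3 higher, in a fit that called 6883 genes, or 48% of all tested. The cause of the length trend was not tested.

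**Figure D4:**
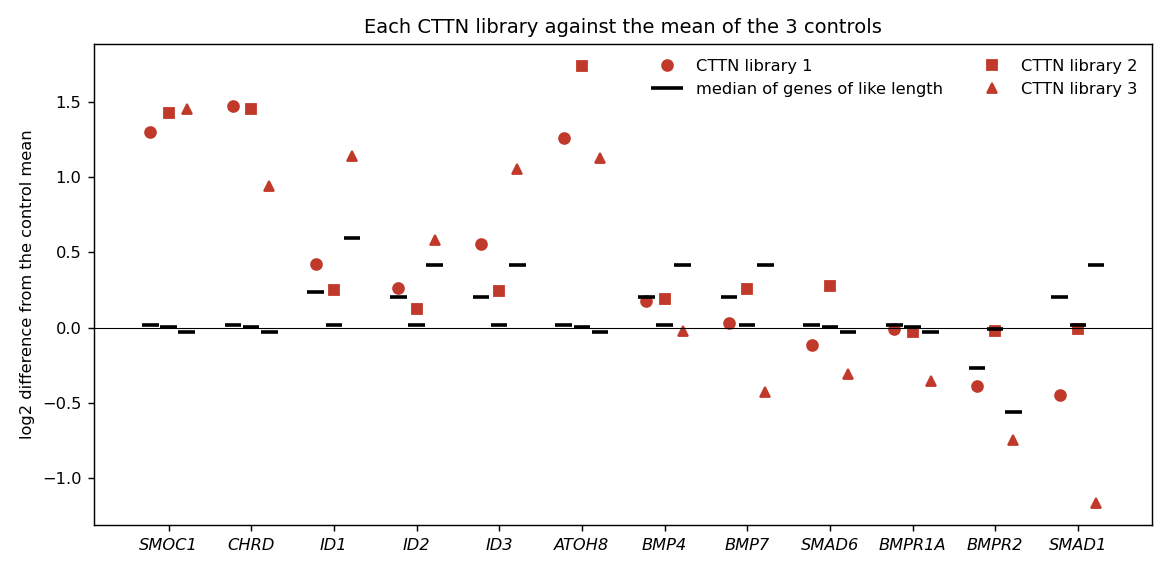
Log2 difference of each CTTN library from the mean of the 3 controls (vertical axis) for 12 genes of the BMP pathway, with black bars at the median of all tested genes of like transcript length in the same library. SMOC1 and CHRD lie well above the bars in all 3 libraries, whereas ID2 (0.26, 0.13 and 0.58) and BMPR2 lie near them.

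The wider pathway was followed over a list of 64 genes other than SMOC1, of which 37 could be tested. A single gene passed, CHRD, and it was higher with CTTN. This 1 of 37 stands beside the 4.23% of all tested genes that passed. Chordin is a secreted protein that binds BMPs and keeps them from their receptors. CHRD (chromosome 3, 184371935 to 184390736) had normalised read counts of 69.5, 68.4 and 47.7 in CTTN libraries and 21.7, 21.8 and 30.7 in controls. All CTTN libraries were above all controls, with CTTN library 3 the lowest of its group. The difference was 1.29 ± 0.24 on the log2 scale (SE), or 2.44-fold (limma adjusted p = 0.0348). On the FPKM scale the CHRD groups were closer, at 0.822, 0.630 and 0.492 against 0.485, 0.444 and 0.427, and the difference no longer passed. CHRD also missed the threshold without CTTN library 1 (adjusted p = 0.178) and without any one control library (adjusted p = 0.101 to 0.177).

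Among 18 antagonist genes other than SMOC1, 8 could be tested, and limma and edgeR each called 1 higher and 0 lower, where limma called 2.27% of all tested genes higher and 1.96% lower. DESeq2 and the fit with the length trend removed each called 2 higher, CHRD and NBL1, and 1 lower, TWSG1, and these fits called 14.8 and 15.6% of all genes. SMOC2, the closest relative of SMOC1 and picked for that, was at 175, 169 and 171 with CTTN and at 157, 177 and 195 in controls, with a log2 difference of -0.03 (95% interval -0.32 to 0.25, limma adjusted p = 0.851). NOG and GREM1 had 1 whole read or none in any library, and CHRDL2 and CER1 had none. These 4 and the genes named in the rest of this paragraph were picked after their values were seen. TWSG1, which can act with chordin, was lower in every CTTN library, at 1342, 1468 and 1128 against 1589, 1775 and 1714 (log2 difference -0.37, limma adjusted p = 0.102), and 18.9% of all tested genes likewise had every CTTN library below every control. Besides the fits above, TWSG1 passed without CTTN library 2 (adjusted p = 0.00800). BAMBI, a receptor-like membrane inhibitor and pathway target, was at 819, 674 and 1005 against 948, 912 and 922 (log2 difference -0.17, limma adjusted p = 0.408). Follistatin (FST), below the level for testing, had 25, 9 and 9 whole reads with CTTN and 5, 1 and 0 in controls. NBL1 shares its row with a neighbouring gene, as do RGMA, SMAD4 and, with small RNAs, SMAD5 and FSTL1, so the values of these 5 rows are not those of single genes.

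Among 14 ligand genes, 4 could be tested and 0 passed with limma, edgeR or DESeq2, also 0 at an unadjusted p under 0.05, with a median log2 difference of 0.03. Whole reads were 0 in every library for 5 of the 14. BMP5, named after its values were seen and too low to test, had 19, 7 and 10 whole reads with CTTN and 0, 2 and 2 in controls. Among 12 receptor and co-receptor genes, 9 could be tested and 0 passed with limma or edgeR, with a median of -0.11. Endoglin (ENG), a co-receptor singled out after its values were seen, was the 1 gene of the 9 that reached an unadjusted p under 0.05, a level reached by 30.5% of all tested genes. It had 3273, 3402 and 3286 normalised reads with CTTN and 2598, 2375 and 2712 in controls, with no overlap and little spread in either group (log2 difference 0.38 ± 0.08 SE, limma adjusted p = 0.0519). Groups without overlap in this direction were found in 19.8% of all tested genes. Of 16 alternatives ENG passed in 4. They were DESeq2 (adjusted p = 0.00196), the length trend removed (0.00604) and the fits without CTTN library 2 (0.0100) or CTTN library 3 (0.0277). These fits called 14.8, 15.6, 48 and 8.18% of all genes. ENG missed the threshold without CTTN library 1 (adjusted p = 0.215) and without any one control library (adjusted p = 0.171 to 0.237). BMPR1B, the other main type I receptor gene, also picked after its values were seen, was at 415, 464 and 448 against 436, 405 and 388 (log2 difference 0.11, limma adjusted p = 0.433), its sign changed on the FPKM scales, and with the length trend removed the difference was 0.38 (adjusted p = 0.0912).

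**Figure D5:**
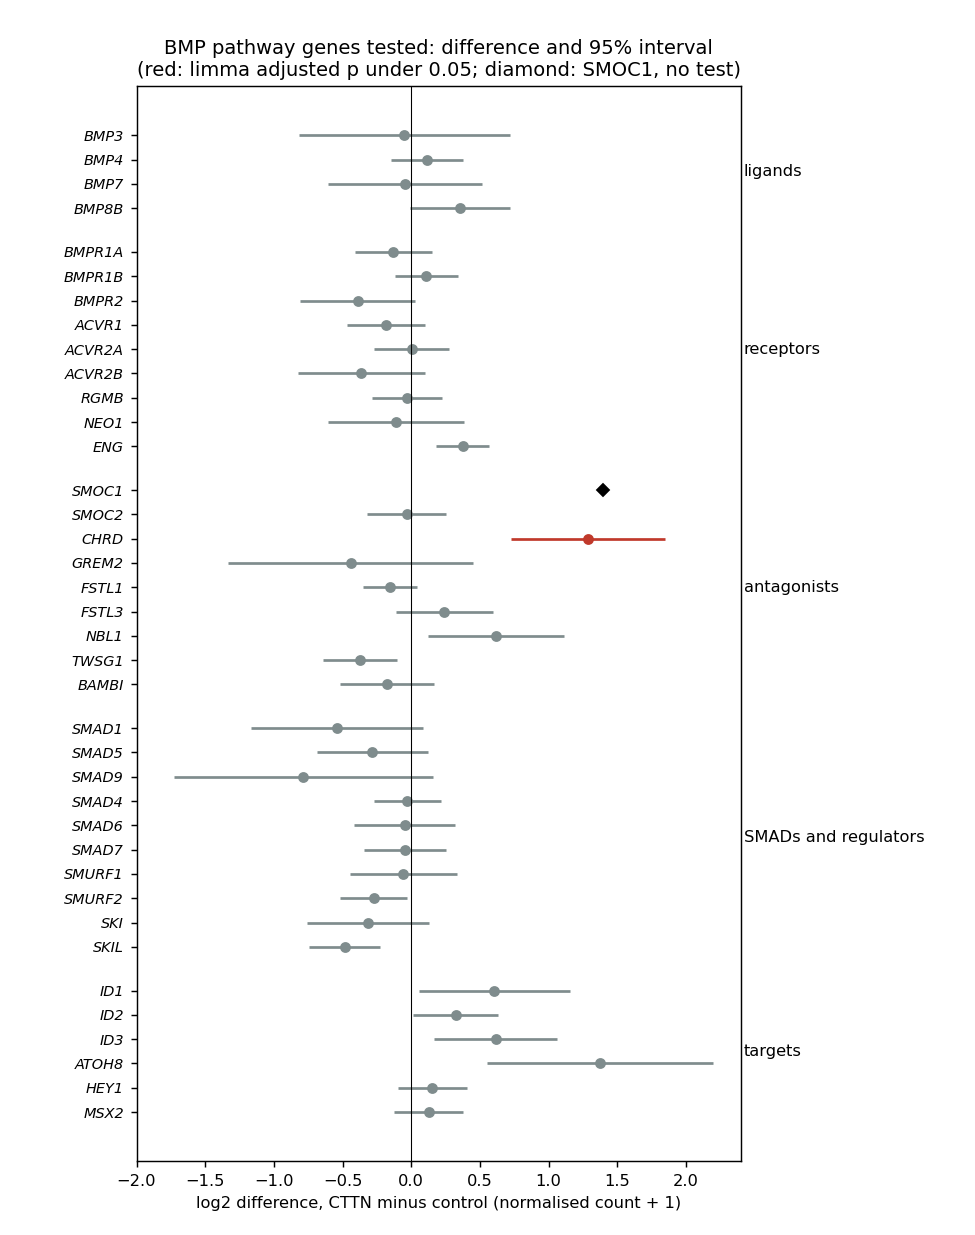
Log2 difference of CTTN minus control with its 95% interval (horizontal axis) for the BMP pathway genes that could be tested, grouped by role; red marks a limma adjusted p under 0.05 and the diamond is SMOC1, shown without a test. CHRD at 1.29 is the one gene in red, and the SMAD genes and their regulators lie below 0, though SMAD5, SMAD6 and SMURF1 lay above 0 with the length trend removed.

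All 10 SMAD genes and regulators could be tested, 0 passed with limma (4.23% of all tested genes did) and all had log2 differences below 0, with a median of -0.28. Of all tested genes 49.5% lay below 0. By leading transcript, 5 of the 10 were of 4000 bases and over, where 85.3% of all genes lay below 0. A further 4 were from 2000 to under 4000 bases, where 51% did, and 1 was from 1000 to under 2000, where 25% did. With the length trend removed, SMAD5 (0.066), SMAD6 (0.082) and SMURF1 (0.21) lay above 0. At an unadjusted p under 0.05, 2 were lower and 0 higher, near the 15.1% lower among all tested genes, and edgeR called 0 and DESeq2 called 1, SKIL. CTTN library 2 was the highest and library 3 the lowest of the group in 7 of the 10, an order found in 37.4% of all tested genes. Of the 5 genes of 4000 bases and over 4 had it, beside 82.2% of all genes of that length. From 2000 to under 4000 bases 2 of 4 had it, beside 35.1% of all such genes. The 1 gene from 1000 to under 2000 bases had it too, beside 10.03%. SMAD1, an effector of BMP receptors, was at 616, 836 and 375 with CTTN and 799, 842 and 887 in controls. CTTN library 2 was within the control range and library 3 far below it, and the log2 difference was -0.54 (95% interval -1.17 to 0.08, limma adjusted p = 0.199). It was -0.23 without CTTN library 3 (adjusted p = 0.279) and -0.81 without CTTN library 2 (adjusted p = 0.00866). SKIL, a repressor of SMAD-driven transcription, was lower in every CTTN library, at 1256, 1446 and 1119 against 1710, 1846 and 1771 (log2 difference -0.49, limma adjusted p = 0.0570). SKIL passed without CTTN library 2 (-0.58, adjusted p = 0.00274) and without CTTN library 3 (-0.40, adjusted p = 0.0318), whereas after removal of the length trend its log2 difference was -0.12 (adjusted p = 0.325). Of all tested genes, 18.9% had groups without overlap in this direction. SMAD1 and SKIL were also picked after their values were seen.

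Among 13 target genes, 9 could be tested, 0 passed with limma or edgeR, and 4 reached an unadjusted p under 0.05, all higher with CTTN and without overlap between groups. Among all tested genes 15.4% reached that level and 19.8% had such groups in that direction. The 4 genes were ID1, ID2, ID3 and ATOH8, a basic helix-loop-helix factor known as a target of the pathway and named after its values were seen. ATOH8 was scarce, at 20.7, 29.3 and 18.8 normalised reads with CTTN and 5.16, 10.5 and 9.58 in controls. Its order of libraries was not that of the ID genes, with CTTN library 2 the highest. The log2 difference was 1.38 ± 0.35 (SE), with a limma adjusted p of 0.0720, and it passed with DESeq2 (adjusted p = 0.0260) and after removal of the length trend (adjusted p = 0.0441). The targets HEY1, MSX2 and SMAD7, also picked after their values were seen, had 95% intervals that held 0.

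SMOC1 belongs to the SPARC family, and of its 7 relatives on the list 5 could be tested. SPOCK1, a matrix proteoglycan with a similar calcium-binding domain, was the 1 of the 5 that passed, beside 4.23% of all tested genes. It had 135, 204 and 107 normalised reads with CTTN and 40.2, 46.3 and 56.5 in controls. The groups did not overlap, and the difference was 1.58 ± 0.26 on the log2 scale (SE), or 3.00-fold (limma adjusted p = 0.0248). On the FPKM scale control library 3 was at 1.42 and overlapped the CTTN libraries at 0.800, 1.65 and 0.763, and SPOCK1 did not pass. It also missed the threshold without CTTN library 1 (adjusted p = 0.124) and without any one control library (adjusted p = 0.0989 to 0.136). SPOCK2 and SPARC, picked after their values were seen, had groups that did not overlap but did not pass with limma or edgeR. Of all tested genes, 19.8% lay without overlap above the controls, as SPOCK2 did, and the 18.9% given above lay below them, as SPARC did. SPOCK2 was at 95.4, 74.3 and 112 against 54.7, 56.7 and 58.4 (log2 difference 0.70, limma adjusted p = 0.0763), and it passed with DESeq2 (adjusted p = 0.0245), with the length trend removed (0.0426) and without CTTN library 2 (0.00552). SPARC, the founding member of the family, was at 19.7, 14.7 and 21.1 against 25.8, 32.3 and 40.2 (log2 difference -0.79, limma adjusted p = 0.115), and it passed with the length trend removed (adjusted p = 0.0375).

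The genes whose levels ran most like SMOC1 were sought by Pearson r of log2(FPKM + 0.1) over the 6 libraries among 11738 genes with a mean of at least 1 FPKM. The 6 points fall into 2 groups of 3 libraries, so r is given as a measure of likeness only. The 5 highest were ALDH9A1 (r = 0.998, in a row shared with a small RNA), CPA4 (0.997), GFY (0.997), KYNU (0.995) and RCAN1 (0.995). They were close to many others, since 42 of the genes searched had r above 0.98. CPA4 encodes a carboxypeptidase, KYNU the kynureninase of tryptophan breakdown, RCAN1 an inhibitor of calcineurin and ALDH9A1 an aldehyde dehydrogenase. Their log2 differences between the groups, given without a test since likeness to SMOC1 chose the genes, were unlike. CPA4 had a mean of 3450 normalised reads with CTTN and 1213 in controls, a log2 difference of 1.51 beside the 1.39 of SMOC1. The log2 difference was 1.10 for GFY, 0.77 for RCAN1, 0.56 for KYNU and 0.18 for ALDH9A1.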

How the data were processed

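Gene-level values came from 6 libraries of SKBR3 cells, 3 with pLVX-CTTN and 3 with pLVX. The submitters' processing notes name bcl2fastq 2.20.0, Trimmomatic, STAR, Cufflinks and GRCh38; the study's methods name another trimmer and hg19, and the deposited coordinates fit GRCh38. The deposited gene counts were a normalised signal: the authors' whole read counts divided by 1 size factor for each library, and 100% of values below 1000 reads were whole within 0.05 of a read. The deposited FPKM values were set by the authors with Cufflinks, as were transcript FPKM. Since the values are not raw counts, the edgeR test planned for counts became an alternative. The main test was limma 3.58.1 (R 4.3.3, trend) on log2(normalised count + 1) over the 14331 genes with a mean of at least 10, with Benjamini-Hochberg adjustment and a threshold of 0.05. The test was tried on simulated data, where it recovered 81% of genes changed by 1 and 100% of those changed by 2 (log2). Recovery at the wider spread of the real CTTN libraries, or with their length trend, was not tested.

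The sample descriptions and table columns disagree on the names of the control columns. They were taken as the 3 control libraries because the deposited sample sheet names them so, and control library numbers follow that sheet. Every sample column of the gene tables was matched to a group. Named genes were all members, list genes with an adjusted p under 0.05, CTTN, and the 5 genes most like SMOC1, together with SMOC2 and others said to be picked after their values were seen. The 5 were in the fit over all genes, but no test is given for them, since likeness to SMOC1 chose them. The members and gene lists were chosen with earlier results of these data known. Alternatives were edgeR 4.0.16, DESeq2 1.42.0, no filter, limma on log2 FPKM, leaving out each library, a replicate block, fewer controls and, added after seeing the data, edgeR with TMM on rounded values (without TMM it was planned) and removal of a length trend. Intervals cover the spread between these 6 libraries only. Marker lists of epithelial, fibroblast, leukocyte and endothelial cells were read for 7, 5, 3 and 2 genes. No protein sequences were used here.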

Additional observations from a re-analysis of the deposited data

How the results depend on the processing

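The count of genes past the threshold in all 14331 tested genes moved with most settings. From 606 (325 higher, 281 lower), it went to 2089 (1084 and 1005) with DESeq2, 2242 (1204 and 1038) with the length trend removed, 395 (202 higher) with no filter on low values, 182 (105 and 77) on log2(FPKM + 1) and 178 (106 and 72) on log2(FPKM + 0.1). Leaving out 1 library gave 15 to 6883 genes, 11 to 3352 higher and 3 to 3531 lower. The 6883 came without CTTN library 2 and 1172 without CTTN library 3. Without CTTN library 1, 19 genes passed, and without control libraries 1, 2 and 3, 43, 15 and 24. edgeR gave 547 to 643. The controls named in the sample descriptions alone, which leave out control library 1, gave 43 (28 and 15). Of the 8 tested members other than SMOC1, 0 passed in the main test, 1 with DESeq2, 1 with the length trend removed and 0 to 4 when 1 library was left out (4 without CTTN library 2, 1 without CTTN library 3). For the 37 pathway genes the count of 1 became 7 with DESeq2, 6 with the length trend removed, 0 with no filter and 0 on either FPKM scale, 0 with the named controls and 0 to 16 with 1 library left out. For the SPARC family the count of 1 became 2 with DESeq2, 3 with the length trend removed, 0 on either FPKM scale, 0 with the named controls and 0 to 2 with 1 library left out. The cause of these moves was not tested.

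The SMOC1 difference was 1.36 to 1.44 with 1 library left out, 1.51 with the length trend removed and 1.10 on log2(FPKM + 1). The CTTN gene ranged from 1.08 to 1.56 with 1 library left out, and missed the threshold without CTTN library 1 (1.25, adjusted p = 0.152), without a control library (1.28, 1.30 and 1.31, adjusted p = 0.136 to 0.150) and with the named controls (1.28, adjusted p = 0.136). Signs turned for BMP4 (-0.047) and BMPR2 (0.14) with the length trend removed, for BMP7 without CTTN library 3 (0.14) or control library 3 (0.018), in a range of -0.20 to 0.14 with 1 library left out, and for SMAD6 with the length trend removed (0.082), on log2(FPKM + 1) (0.15), on log2(FPKM + 0.1) (0.17) and without CTTN library 3 (0.080), in a range of -0.21 to 0.080 with 1 library left out. BMPR1B turned on log2(FPKM + 1) (-0.014) and log2(FPKM + 0.1) (-0.022). Of 16 alternatives, CHRD passed in 7, SPOCK1 in 8, ENG in 4, SPARC in 1, and SKIL, TWSG1, ATOH8 and SPOCK2 in 3 each. On log2(FPKM + 1), ATOH8, SPOCK2 and SPARC were at 0.23, 0.31 and -0.27.

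The replicate numbers did not pair the libraries: deviations of same-numbered libraries correlated at 0.02, 0.08 and -0.19, and not every library correlated best with its own number. With the replicate number as a block, 108 genes passed (53 higher, 55 lower), 0 of the pathway list, 0 of the SPARC family and 0 of the members other than SMOC1, and the CTTN gene was at 1.30 (adjusted p = 0.0587). Genes with few reads, such as BMP2, BMP5 and FST, were too shallow to test.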
